A study of Mus musculus with 24 samples.

Results

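The POU transcription factors examined here are the products of 9 POU genes: Pou5f1 (OCT4), Pou2f1 (OCT1), Pou2f2 (OCT2), Pou3f1 (OCT6), Pou3f2 (BRN2), Pou3f3 (BRN1), Pou3f4 (BRN4), Pou4f1 (BRN3A) and Pou6f1 (BRN5). They were taken by name from tables of 51912 genes, and all 9 were found. The question was which POU factors were present in cells that have lost OCT4 and could occupy its place. RNA-Seq was performed in 3 groups of 3 libraries each: wild type ESCs of strain C57BL/6 X 129S5, which are mouse embryonic stem cells of the line TC-1; wild type neuronal progenitors (NPs) of the same strain, made from these ESCs by growing them as cellular aggregates and then adding retinoic acid; and TET TKO ESCs of strain C57BL/6 X 129/sv, a line with a triple knockout of the TET1, TET2 and TET3 dioxygenases, which oxidize methylated cytosine. Genotype, strain, line and sequencing depth differ together between TET TKO and wild type ESCs and cannot be told apart, and each group is 1 line, so that p values measure the spread between libraries of that line.

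POU factors bind DNA through a bipartite domain, a POU-specific part and a POU homeodomain joined by a flexible linker, and most of them recognize an octamer or a variant of it. OCT4 is the member that holds ESCs in the pluripotent state, where it binds next to the HMG-box factor SOX2 on a composite motif. BRN1, BRN2 and BRN4 belong to class III of the family, are typical of neural progenitors and the developing brain, and are also known to bind DNA together with SOX factors. OCT1 is made in most cells, OCT2 is best known from B lymphocytes and neurons, OCT6 from the epiblast and Schwann cells, and BRN3A from sensory neurons.

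The libraries held 20519702 to 23976914 counts in ESCs and NPs and 80704741 to 93210102 in TET TKO ESCs. The cell types were compared with their markers. The summed level of 6 pluripotency markers (Nanog, Zfp42, Esrrb, Tfcp2l1, Dppa5a, Tdgf1) was 2087 to 2116 RPKM (counts divided by exonic length in kilobases and by library size, with the scaling factors of edgeR) in ESCs and 4.61 to 22.8 in NPs. That of 6 neural progenitor markers (Pax6, Nes, Sox1, Fabp7, Hes5, Vim) was 66.5 to 73.1 in ESCs and 319 to 454 in NPs. The sum of 7 neuronal markers overlapped, at 124 to 140 RPKM in ESCs and 81.9 to 193 in NPs. Its most abundant gene, Tubb3, was at 70.1 RPKM in ESCs and 105 in NPs and was not called, and Stmn2 was called lower (57.7 and 7.67), while 4 of the 7 were called higher by edgeR (Dcx, Elavl3, Elavl4 and Map2). Of these 4, Dcx, Elavl4 and Map2 entered the test only through their NP levels. Over all 15083 genes tested between NPs and ESCs, edgeR called 12.4% higher and 10% lower. NPs also held markers of endoderm (4 genes, 18.7 to 22.8, with Foxa2 the highest), fibroblasts (4 genes, 2.94 to 27.8) and glia (4 genes, 4.37 to 8.08, nearly all of it Olig2, with S100b at 0 and Gfap at 0.0782 ± 0.0483). NP replicate 2 stood apart, with the highest pluripotency sum (22.8 against 7.75 and 4.61), the highest fibroblast sum (27.8 against 9.53 and 2.94) and the lowest neuronal and progenitor sums, and key values are therefore also given without it. Of the targeted genes, Tet1 was at 13.0 ± 2.22 RPKM in TET TKO ESCs and 67.0 ± 3.95 in ESCs (SD, n = 3 each), Tet2 at 2.38 ± 0.178 and 19.5 ± 2.75, and Tet3 was low in both at 0.529 ± 0.0673 and 0.737 ± 0.0769. The counts cover whole genes, so transcripts that lack only the deleted part are included.

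Pou5f1, the gene of OCT4 (ENSMUSG00000024406, chromosome 17, 35506018 to 35510772 on GRCm38), was by far the most abundant POU gene of ESCs and was close to 1 RPKM in NPs. It had 18564, 20372 and 20806 counts in the 3 ESC libraries, or 405, 426 and 383 RPKM, and 45, 101 and 25 counts in the 3 NP libraries, or 0.950, 1.86 and 0.488 RPKM. The groups were widely separated, and the highest NP value was that of replicate 2, the library with the highest pluripotency sum (22.8 RPKM), whose part in the value was not tested. The mean fell from 405 ± 21.8 to 1.10 ± 0.698 RPKM, a 368-fold decrease, and the fitted log2 fold change was −8.50 ± 0.42 (SE; adjusted p = 1.59e-06, edgeR quasi-likelihood test with Benjamini-Hochberg adjustment over 15083 genes). Without NP replicate 2 it was −9.14 (edgeR adjusted p = 1.01e-06). In bulk RNA, fewer cells with a transcript and less of it per cell cannot be told apart. An antisense gene, Gm19553, shares 317 exon bases with Pou5f1, or 14.1% of its exonic length, but had only 12 to 16 counts in ESCs and 0 in NPs.

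**Figure D1:**
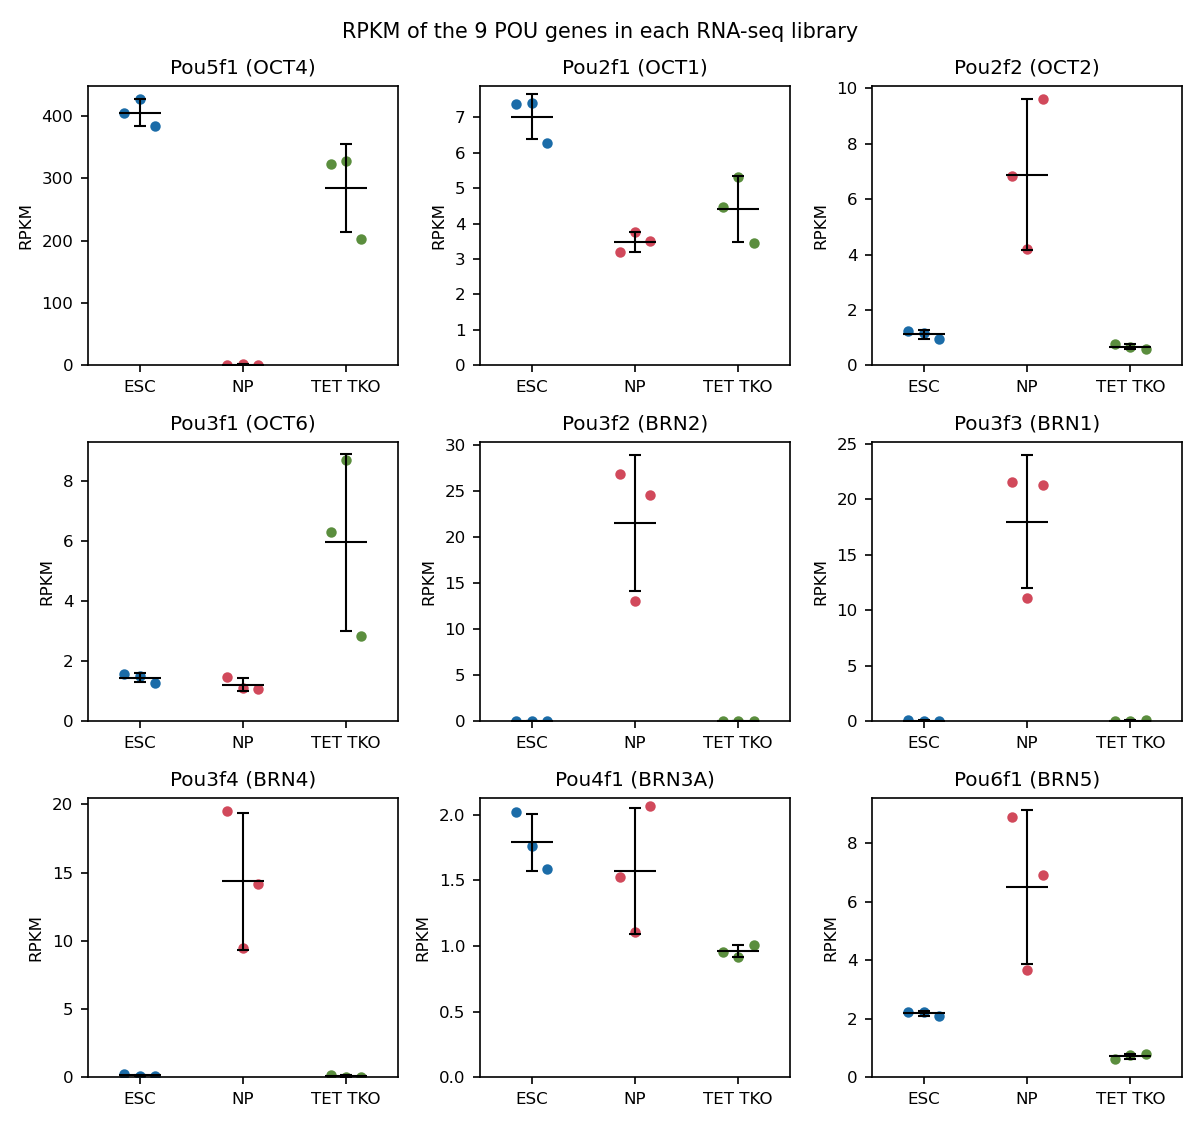
RPKM of each of the 9 POU genes (y axis, from 0, separate scale in each panel) in the 3 ESC, 3 NP and 3 TET TKO libraries. Points are libraries, and black bars are the mean ± SD. Pou5f1 was high in both ESC groups, while Pou3f2, Pou3f3 and Pou3f4 lay above 9 RPKM in every NP library and below 0.3 RPKM in every other library.

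The largest increases among the 9 genes in NPs were those of 3 class III genes (BRN2, BRN1 and BRN4), each of which had only a few reads in ESCs. Pou3f2, the gene of BRN2 (ENSMUSG00000095139, chromosome 4, 22482780 to 22488366), had 5, 9 and 5 counts in ESCs and 3170, 1761 and 3127 in NPs, which correspond to 0.0439, 0.0757 and 0.0370 RPKM and to 26.9, 13.1 and 24.6 RPKM. Pou3f3, the gene of BRN1 (ENSMUSG00000045515, chromosome 1, 42695768 to 42703176), had 14, 13 and 8 counts in ESCs and 3375, 1979 and 3602 in NPs, the latter being 21.6, 11.1 and 21.3 RPKM. Pou3f4, the gene of BRN4 (ENSMUSG00000056854, chromosome X, 110814280 to 110817207), had 13, 5 and 9 counts in ESCs and 1206, 669 and 949 in NPs, the latter being 19.5, 9.46 and 14.2 RPKM. All 3 genes were called higher in NPs, as were 12.4% of the 15083 genes tested, and for each of them NP replicate 2 was the lowest of the NP libraries. Mean levels were 412-fold higher in NPs for Pou3f2, 246-fold for Pou3f3 and 102-fold for Pou3f4. The fitted log2 fold changes were 8.69 ± 0.42, 7.96 ± 0.39 and 6.67 ± 0.42 (SE; edgeR adjusted p = 1.47e-06, 1.63e-06 and 4.85e-06), and without NP replicate 2 they were 8.93, 8.21 and 6.89. By size of the fitted fold change in either direction, Pou3f2, Pou5f1 and Pou3f3 ranked 126, 141 and 196 among the 15083 genes tested, and Pou3f4 ranked 414. These 3 class III genes passed the filter on low values only through their NP level. None of them shares exon bases with another annotated gene, and each is a gene of a single exon.

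To see what the promoters of the genes that changed places have in common, the sequences upstream of the RefSeq start sites were read (RefSeq, GRCm38.p6). Each is given 5′ to 3′ on the strand of the gene, up to the first base of the annotated gene, with CpGs in capitals, because CpGs are the sites of the methylation that the study follows.

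Pou5f1 (OCT4, chr17:35505782-35506017, plus strand): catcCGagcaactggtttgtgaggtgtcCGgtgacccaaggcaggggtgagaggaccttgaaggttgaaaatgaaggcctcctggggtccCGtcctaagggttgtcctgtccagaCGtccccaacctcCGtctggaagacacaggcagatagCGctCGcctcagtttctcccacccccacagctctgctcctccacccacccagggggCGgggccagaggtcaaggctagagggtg

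Pou3f2 (BRN2, chr4:22488367-22488616, minus strand): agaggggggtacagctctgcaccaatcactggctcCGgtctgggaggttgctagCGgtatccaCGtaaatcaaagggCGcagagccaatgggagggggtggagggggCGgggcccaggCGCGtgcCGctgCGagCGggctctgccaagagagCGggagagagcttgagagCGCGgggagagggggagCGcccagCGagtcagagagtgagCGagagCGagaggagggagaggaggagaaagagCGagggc

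Pou3f3 (BRN1, chr1:42695518-42695767, plus strand): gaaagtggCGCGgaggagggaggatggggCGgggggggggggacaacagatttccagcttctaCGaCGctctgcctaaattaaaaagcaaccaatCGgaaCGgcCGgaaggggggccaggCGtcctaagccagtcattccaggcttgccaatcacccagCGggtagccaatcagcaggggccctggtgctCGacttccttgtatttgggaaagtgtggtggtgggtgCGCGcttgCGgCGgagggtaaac

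Pou3f4 (BRN4, chrX:110814129-110814279, plus strand): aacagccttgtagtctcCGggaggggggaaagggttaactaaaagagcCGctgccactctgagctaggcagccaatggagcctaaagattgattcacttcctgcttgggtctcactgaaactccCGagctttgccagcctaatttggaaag

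The stretch of Pou5f1 held 8 CpGs in 236 bases, that of Pou3f2 18 in 250, that of Pou3f3 15 in 250 and that of Pou3f4 3 in 151. Over full windows of 300 bases, which run from 250 bases before to 50 bases after the start site, the upstream start of Pou5f1 had 11 CpGs and its second listed start had 6. Pou3f2 had 24, Pou3f3 18 and Pou3f4 15, and all 32851 windows of the table had a median of 7 CpGs with quartiles of 3 and 20. The ratio of observed to expected CpGs was 0.374 and 0.388 at Pou5f1 and 0.824, 0.699 and 0.602 at the 3 BRN genes. The other members spanned nearly the whole range, from Pou4f1 with 57 CpGs, more than 99.8% of the windows, to Pou2f1, whose 3 start sites had 32, 2 and 2. Pou2f2 had 13 and Pou6f1 26, and Pou3f1 has no window in the table.

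The canonical octamer, ATGCAAAT or its complement ATTTGCAT, was in 0 of the 11 windows of the members and in 570 (1.74%) of all windows. The hexamer AGGTCA or TGACCT, the core of elements bound by nuclear hormone receptors, was in 1 of the 11, the upstream window of Pou5f1, where it stands in the run that follows the GC-rich stretch near the 3′ end of the sequence above, and in 16.3% of all windows. A pattern noticed after the sequences were read was that of CCAAT boxes (CCAAT or ATTGG). Pou3f2 had 2, Pou3f3 had 3 and Pou3f4 had 3 in the window of 300 bases, each window of Pou5f1 had 1, and the windows of Pou2f1, Pou2f2, Pou4f1 and Pou6f1 had 0. All those of Pou3f2 and Pou3f3 lie in the stretches printed above. Of those of Pou3f4 only 1 does, and the others lie within the annotated gene. Of all windows, 37.4% had at least 1 and 11.7% had at least 2. These matches are descriptions of letters, and the methylation of the windows was not analysed here.

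Of the octamer genes of class II, Pou2f2 was called higher in NPs and Pou2f1 was not called. Pou2f2, the gene of OCT2 (ENSMUSG00000008496, chromosome 7, 25087344 to 25179726), was at 1.23, 1.17 and 0.948 RPKM in ESCs and at 6.83, 4.19 and 9.63 RPKM in NPs, without overlap. Its mean rose 6.16-fold, with a log2 fold change of 2.64 ± 0.30 (SE; edgeR adjusted p = 0.000112). This call was lost without ESC replicate 3, where the value was 2.53 and the edgeR adjusted p was 0.00111, and it was also lost at a log2 fold change of at least 3. An antisense gene within its span, D930028M14Rik, had 14 to 39 counts in ESCs and 1513, 815 and 993 in NPs. The pair shares 0 annotated exon bases, but the libraries were counted without regard to strand, and its part in the value of Pou2f2 was not tested. Pou2f1, the gene of OCT1 (ENSMUSG00000026565, chromosome 1, 165865154 to 166002678), was at 7.37, 7.40 and 6.28 RPKM in ESCs and at 3.20, 3.76 and 3.50 in NPs. It was lower in all 3 NP libraries, by 2.01-fold on average, with a log2 fold change of −0.99 ± 0.12 (SE; edgeR adjusted p = 0.000134), which is below the 3-fold threshold.

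Pou6f1, the gene of BRN5 (ENSMUSG00000009739, chromosome 15, 100575318 to 100599984), was at 2.24, 2.23 and 2.09 RPKM in ESCs and at 8.89, 3.68 and 6.92 in NPs. The groups did not overlap, and the log2 fold change was 1.59 ± 0.29 (SE; edgeR adjusted p = 0.00156), which missed the threshold of 0.001. Without NP replicate 2, the lowest of the NP libraries, it was 1.86 with an edgeR adjusted p of 5.75e-05 and passed. It also passed with library sizes alone in place of scaling factors (1.66, edgeR adjusted p = 0.000989) and without the filter on low values (edgeR adjusted p = 1.43e-06).

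Pou3f1, the gene of OCT6 (ENSMUSG00000090125, chromosome 4, 124656807 to 124660655), did not follow the other genes of its class. It was at 1.57, 1.5 and 1.28 RPKM in ESCs and at 1.47, 1.10 and 1.08 in NPs, and the values overlapped. The log2 fold change of −0.24 (edgeR adjusted p = 0.404) had an interval of ± 2 SE from −0.72 to 0.24. Pou4f1, the gene of BRN3A (ENSMUSG00000048349, chromosome 14, 104461676 to 104467999), was at 2.02, 1.76 and 1.59 RPKM in ESCs and at 1.53, 1.11 and 2.07 in NPs, with a log2 fold change of −0.17 (edgeR adjusted p = 0.601; ± 2 SE, −0.72 to 0.37). Neither gene passed the test, and a change of 3-fold lies outside both intervals.

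In all, 5 of the 9 members met the criteria of an adjusted p under 0.001 and a fold of at least 3 between NPs and ESCs, namely Pou2f2, Pou3f2, Pou3f3 and Pou3f4 as higher and Pou5f1 as lower. The share of all 15083 genes tested that met them was 22.4% (12.4% higher and 10% lower). The median log2 fold change was 1.59 over the members and 0.0252 over all genes. As 3 of the members passed the filter through NPs alone, these counts are a description.

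**Figure D2:**
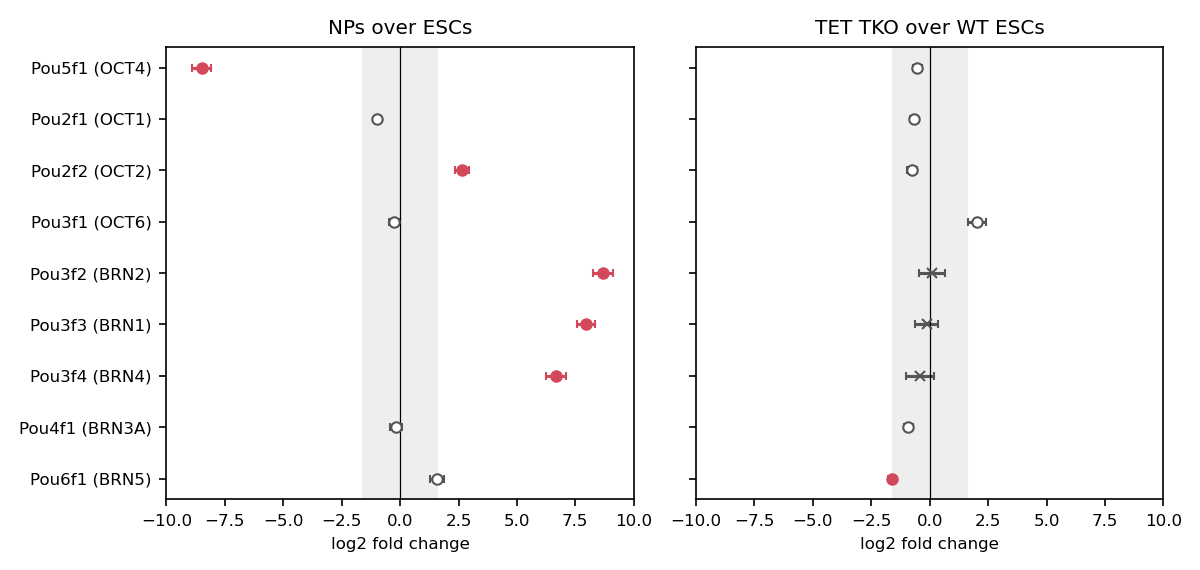
Log2 fold change (x axis) of the 9 POU genes in NPs against ESCs (left) and in TET TKO against wild type ESCs (right), fitted by edgeR on 3 libraries per group. Bars are ± SE, filled red points met both criteria, open points were tested and did not, crosses were below the filter on low values, and the grey band marks changes under 3-fold. In NPs, Pou5f1 lay at −8.50 and Pou3f2, Pou3f3 and Pou3f4 between 6.67 and 8.69.

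The levels were then set side by side within a library, as RPKM accounts for gene length. Pou5f1 made up 96.5%, 96.8% and 96.9% of the summed RPKM of the 9 genes in the ESC libraries and 1.04%, 3.78% and 0.582% in the NP libraries. The 4 class III genes made up 0.410% ± 0.0426 in ESCs and 73.3% ± 3.05 in NPs (SD, n = 3), of which Pou3f2 had 28.5%, Pou3f3 23.9%, Pou3f4 19.2% and Pou3f1 1.71%. Their proportions were alike in the 3 NP libraries, including replicate 2, where Pou3f2 had 26.5%, Pou3f3 22.5% and Pou3f4 19.2%. Pou2f2 with 9.17% ± 2.07 and Pou6f1 with 8.50% ± 1.18 came next. The class III genes thus held the largest share in NPs, though a smaller one than the 96.7% ± 0.195 that Pou5f1 held in ESCs.

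In amount the states were further apart. The 9 genes summed to 420, 440 and 395 RPKM in ESCs and to 90.9, 49.3 and 83.8 RPKM in NPs, so that the total in NPs was 17.8% of that in ESCs. The summed level of the 4 class III genes went from 1.72 ± 0.219 to 55.1 ± 18.2 RPKM, a gain of 53.4 RPKM, against a loss of 404 RPKM by Pou5f1. The gain was 13.2% of the loss. Without NP replicate 2 the class III sum in NPs was 65.4 RPKM. RPKM values are shares of the messenger RNA of a library, and amounts of protein and of RNA per cell were not measured.

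**Figure D3:**
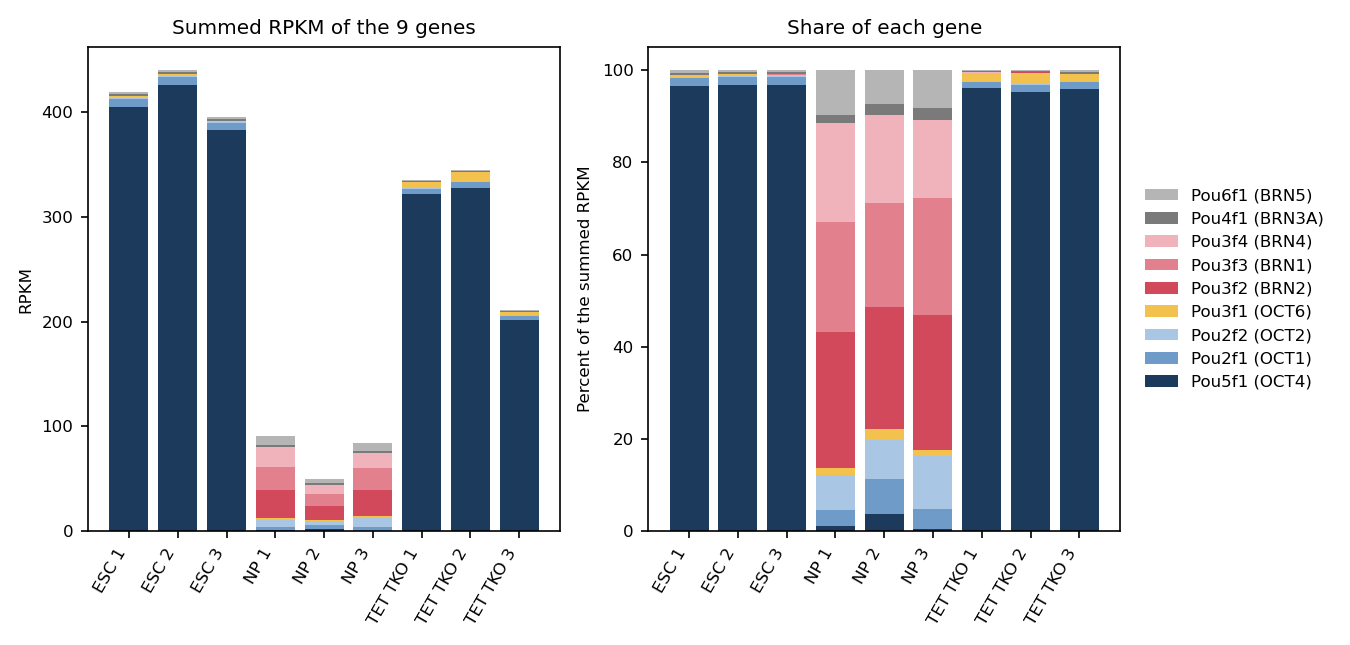
Summed RPKM of the 9 POU genes in each library (left) and the share of each gene in that sum in percent (right). The dark blue part is Pou5f1 and the red and pink parts are Pou3f2, Pou3f3 and Pou3f4. In NPs the red and pink parts took 68.1% to 74.9% of a sum that reached 49.3 to 90.9 RPKM, against 395 to 440 RPKM in ESCs.

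The order of the genes by level differed between the groups. In ESCs it was Pou5f1 (405 RPKM), Pou2f1 (7.02), Pou6f1 (2.19), Pou4f1 (1.79), Pou3f1 (1.45), Pou2f2 (1.12), Pou3f4 (0.142), Pou3f3 (0.0733) and Pou3f2 (0.0522), and only the last 3 overlapped with their neighbours. In NPs it was Pou3f2 (21.5 ± 7.42), Pou3f3 (18.0 ± 6.01), Pou3f4 (14.4 ± 5.04), Pou2f2 (6.88), Pou6f1 (6.50), Pou2f1 (3.49), Pou4f1 (1.57), Pou3f1 (1.22) and Pou5f1 (1.10), from first to last. Here the only neighbours whose values did not overlap between libraries were Pou2f1 and Pou4f1. Within each NP library, however, the order of the 3 BRN genes by RPKM was the same, and their shares of the sum did not overlap, at 26.5% to 29.6% for Pou3f2, 22.5% to 25.5% for Pou3f3 and 17.0% to 21.5% for Pou3f4. This order depends on the division by gene length. As CPM (counts scaled by library size and not by gene length), Pou3f3 came first in NPs with a mean of 133, followed by Pou3f2 (120), Pou2f1 (57.9), Pou2f2 (56.7), Pou6f1 (44.8) and Pou3f4 (42.2).

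The proteins were compared with OCT4, which has 352 residues, by local alignment of the translated GENCODE coding sequences. The stretch of OCT4 from residue 127 to 280 was covered by the alignments of all 8 other members and was chosen as the common measure after the alignments were seen. Of its 154 positions, 98 (63.6%) were identical in each of OCT6, BRN2, BRN1 and BRN4, 87 (56.5%) in OCT1 and in OCT2, 76 (49.4%) in BRN3A and 64 (41.6%) in BRN5. Within each local alignment, which differs in length between members, identity was 64.7% over 153 aligned positions for BRN2, 64.1% over 153 for BRN4, 58.7% over 184 for BRN1, 52.8% over 254 for OCT6, 46.9% over 241 for OCT2, 45.4% over 229 for OCT1, 42.4% over 250 for BRN3A and 41.2% over 170 for BRN5. Among the class III proteins, local identity was 74.1% between BRN2 and BRN4, 73.2% between BRN1 and BRN4 and 70.4% between BRN2 and BRN1, and 59.7% to 64.0% between OCT6 and these 3. These alignments span 320 to 412 positions, so their percentages cannot be ranked against those with OCT4. Over the common stretch, the 3 genes with the highest RPKM in NPs were among the 4 whose products shared the most positions with OCT4. The fourth of them, Pou3f1, was among the lowest in NPs. In global alignments, OCT1 (149) and OCT2 (145) had more positions identical to OCT4 than BRN4 (142). Their identity per aligned position was 42.6% and 41.8%, against 46.6% for BRN4.

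**Figure D4:**
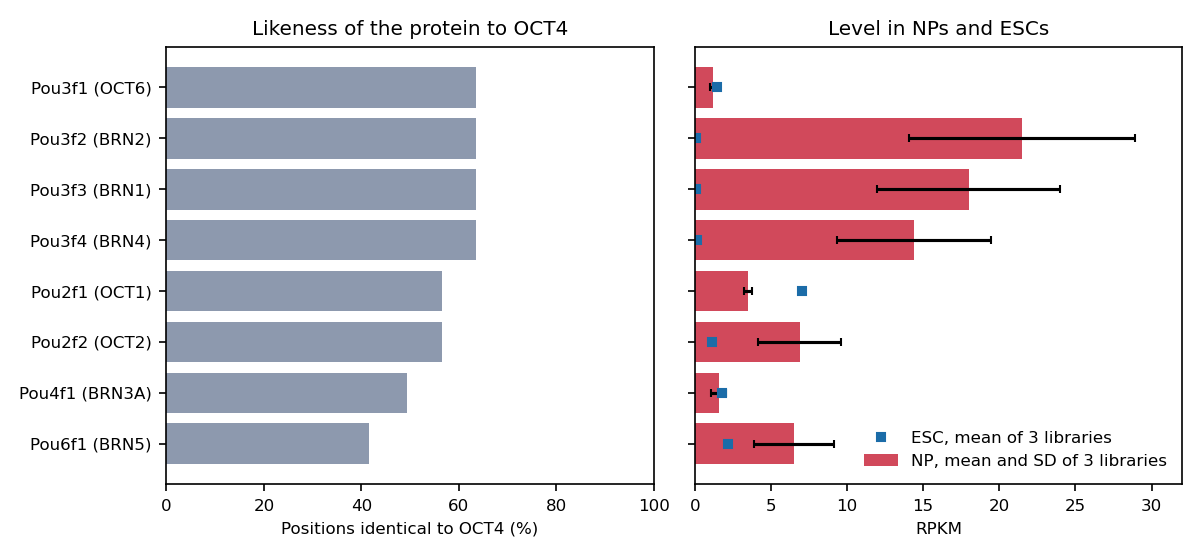
Left, percent of the 154 positions of the common stretch of OCT4 that are identical in each of the 8 other members. Right, RPKM in NPs (bars, mean ± SD of 3 libraries) and in ESCs (squares, mean of 3). The 4 class III proteins share 63.6% of positions, and their genes ranged from 1.22 RPKM (Pou3f1) to 21.5 RPKM (Pou3f2) in NPs.

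The comparison of TET TKO with wild type ESCs shares its ESC libraries with that of NPs. Pou5f1 stayed the main POU gene, at 322, 328 and 202 RPKM, with replicate 3 the lowest. All 3 values were below those of ESCs, with a log2 fold change of −0.53 ± 0.18 (SE) that did not pass (edgeR adjusted p = 0.0550). Its share of the 9 genes was 95.7% ± 0.413. Pou3f2, Pou3f3 and Pou3f4 remained at 0.038 to 0.196 RPKM with 11 to 62 counts per library and lay under the filter, so they entered no test. Their log2 fold changes, fitted over unfiltered genes, were 0.10, −0.14 and −0.41, with intervals of ± 2 SE from −1.04 to 1.24, from −1.12 to 0.85 and from −1.61 to 0.80. A difference from ESCs was not detectable at this depth.

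The member with the largest positive difference was Pou3f1, which did not pass the test. It had 1951, 2508 and 985 counts in TET TKO ESCs, or 6.32, 8.72 and 2.86 RPKM, against at most 1.57 RPKM in ESCs, and was the second POU gene of these cells by level, at 5.97 ± 2.94 RPKM. Its 4.12-fold higher mean, with a log2 fold change of 2.02 ± 0.38 (SE), had an edgeR adjusted p of 0.00644 and missed the threshold. It passed without TET TKO replicate 3 (log2 fold change 2.36, edgeR adjusted p = 0.000457), without the filter on low values (edgeR adjusted p = 1.12e-05) and in DESeq2 (adjusted p = 7.41e-07). Replicate 3 had the lowest level of Pou3f1 and of Pou5f1 and the highest pluripotency sum, 2658 RPKM against 2006 and 1809. Gm2164, which shares 330 exon bases with Pou3f1, had 2 to 3 counts in these libraries.

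Pou6f1 met both criteria as lower. It was at 0.628, 0.751 and 0.802 RPKM in TET TKO ESCs against 2.09 to 2.24 in ESCs, a 3.01-fold lower mean, and its log2 fold change was −1.61 ± 0.18 (SE; edgeR adjusted p = 0.000816). The value lies at both thresholds, and it met them in only 4 of 14 alternatives, with log2 fold changes from −1.68 to −1.50. Pou4f1 (log2 fold change −0.92, edgeR adjusted p = 0.00965), Pou2f2 (−0.76, edgeR adjusted p = 0.0244) and Pou2f1 (−0.69, edgeR adjusted p = 0.0146) had lower means and did not pass. Of the 6 members tested here, 0 were called higher and 1 lower by edgeR, all 6 had an unadjusted p under 0.05, and DESeq2 called Pou3f1 as higher as well. No share of all genes under that unadjusted p was determined, so this count and later ones of its kind have no background. Here 2.16% of 14048 genes were called by edgeR, 0.84% higher and 1.32% lower. The median log2 fold change was −0.724 over these 6 and 0.0108 over all genes. Pou6f1 and Pou2f2 passed the filter on low values only through ESCs, so the call, the counts and the median are a description.

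Of the POU genes outside the members, 5 are described here, and each was under 1 RPKM in all 3 NP libraries. Pou2f3, whose product acts in keratinocytes and chemosensory cells, fell from 1.98 ± 0.345 RPKM in ESCs to 0.0386 ± 0.0237 in NPs, with a log2 fold change of −5.62 ± 0.45 (SE; edgeR adjusted p = 1.53e-05). Pou4f2, the gene of BRN3B, was at 1.27 ± 0.467 and 0.140 ± 0.174 RPKM and did not pass (edgeR adjusted p = 0.00497). Pou4f3 (BRN3C) had 0 to 1 counts and Pou1f1, the pituitary factor PIT-1, 0 to 1 counts in the NP libraries. Pou5f2, the closest relative of OCT4 by gene class, had 0 to 2 counts in NPs.

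As OCT4 and class III factors act with SOX partners, 8 SOX genes were examined. Sox2 was at 224, 226 and 249 RPKM in ESCs and at 63.2, 49.5 and 51.2 in NPs, a log2 fold change of −2.08 (edgeR adjusted p = 4.60e-06). Its relatives of the SOXB1 group rose, Sox3 from 2.21 ± 0.496 to 62.2 ± 27.4 RPKM (log2 fold change 4.83) and Sox1 from 0.630 ± 0.140 to 12 ± 4.26 (4.26), as did the SOXC genes Sox11, from 1.48 ± 0.157 to 49.9 ± 12.5 (5.09), and Sox4, from 3.09 ± 0.361 to 36.4 ± 11.5 (3.57). Of the 8 genes, 5 were called higher (Sox1, Sox3, Sox4, Sox11 and the endodermal Sox17) and 2 lower (Sox2 and Sox15). The median log2 fold change of the list was 3.92, and that of all genes was 0.0252. Of all 15083 genes tested, 12.4% were called higher and 10% lower. Sox1 and Sox17 passed the filter on low values only through NPs, so the count and the median of the list are a description. Sox21 missed the threshold (edgeR adjusted p = 0.00880). The summed level of the 8 genes was 257 to 291 RPKM in ESCs and 177 to 295 in NPs, so the SOX sum of NPs overlapped that of ESCs while the POU sum of the 9 members did not. In TET TKO ESCs 0 of 7 SOX genes tested were called by edgeR and by DESeq2, with 3 at an unadjusted p under 0.05 (Sox1, Sox11 and Sox15), and Sox2 was at 215, 195 and 266 RPKM. Among all 14048 genes tested there, edgeR called 2.16%. Sox1 passed the filter there only through TET TKO ESCs.

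**Figure D5:**
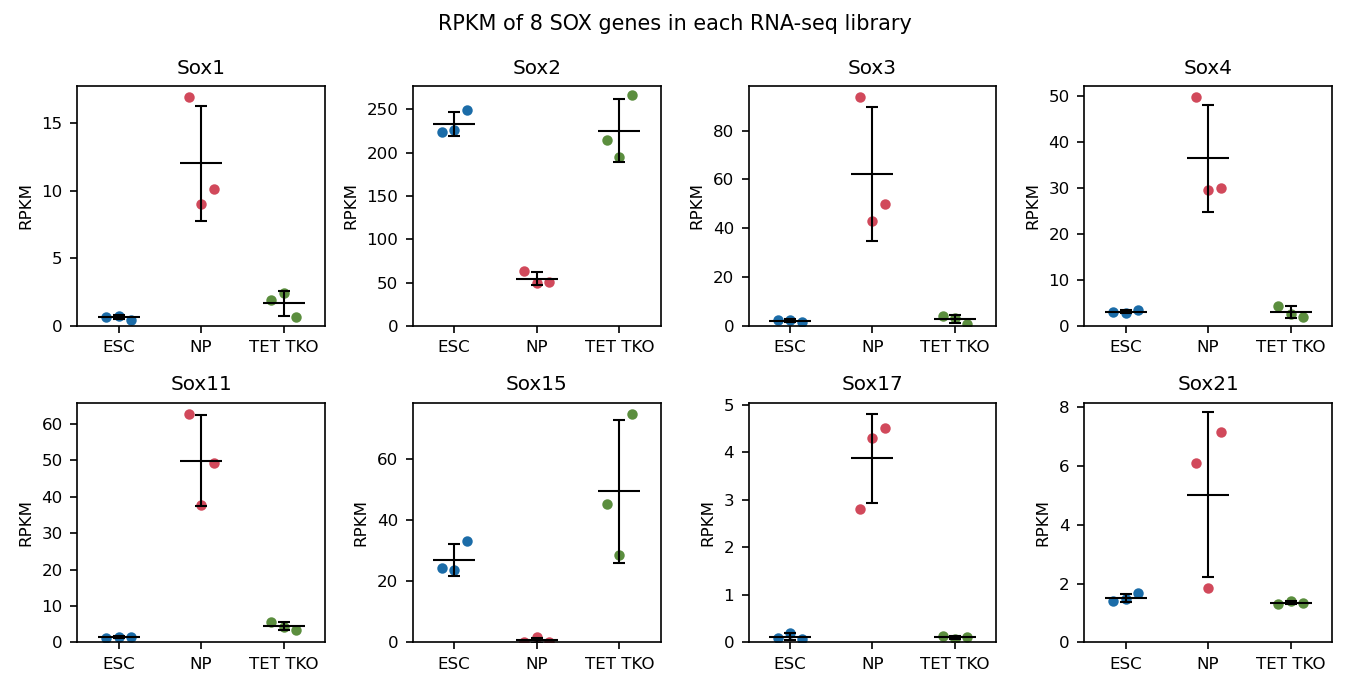
RPKM of 8 SOX genes (y axis, from 0, separate scale in each panel) in each library, with the mean ± SD in black. In NPs Sox2 lay at 49.5 to 63.2 RPKM against 224 to 249 in ESCs, and Sox1, Sox3, Sox4 and Sox11 lay above all ESC libraries.

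Genes with described composite OCT4 and SOX2 elements were lower in NPs. All 10 of this list, among them Fgf4, a growth factor, the pluripotency factor Nanog, Utf1 and Fbxo15, were called lower in NPs, with a median log2 fold change of −7.54 where that of all genes was 0.0252. Of all genes tested, 10% were called lower. Fgf4, Lefty1, Tdgf1 and Esrrb passed the filter on low values only through ESCs, so the count and the median of the list are a description. Fgf4 went from 76.7 ± 6.35 to 0.166 ± 0.114 RPKM and Nanog from 291 ± 16.5 to 0.937 ± 0.610, while Sall4 kept 11.7 ± 1.97 of 96.4 ± 8.35 RPKM. In TET TKO ESCs 1 of the 10 was called, Zfp42, which was lower at 48.7 ± 10.7 against 313 ± 8.56 RPKM. Among all 14048 genes tested there, edgeR called 1.32% lower. Nanog, Zfp42, Esrrb and Tdgf1 are also among the pluripotency markers, of which 6 of 6 were called lower.

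Of 6 genes described as regulated by class III factors, 4 were tested in NPs, with a median log2 fold change of 3.89 (0.0252 over all genes). Fabp7 among them passed the filter on low values only through its NP level and Mitf only through its ESC level, so the counts and the median are a description. Of the 4, 3 were called higher (12.4% of all genes were called higher and 10% lower). These were Nes, the intermediate filament nestin of progenitors, at 75.1 ± 18.2 against 4.14 ± 0.484 RPKM (log2 fold change 4.20), Fabp7, the brain lipid-binding protein (10.2 ± 3.60 against 0.0566 ± 0.0682), and Dll1, a Notch ligand (15.7 ± 5.99 against 1.32 ± 0.213). Mitf, the melanocyte regulator, was called lower, at 0.194 ± 0.0515 against 1.85 ± 0.281 RPKM. Crh and Egr2, known targets in hypothalamus and Schwann cells, stayed under 0.3 RPKM in every library. Nes, Fabp7 and Dll1 were, like the BRN genes, lowest in NP replicate 2, and Nes and Fabp7 are also in the list of progenitor markers. In TET TKO ESCs 0 of 3 tested genes of this list were called by edgeR and by DESeq2, and 1 (Nes) had an unadjusted p under 0.05. Among all 14048 genes tested there, edgeR called 2.16%.

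Of the partners of OCT1 and OCT2, 0 of 6 tested were called in either comparison, by edgeR or DESeq2. Of all genes tested, edgeR called 22.4% in NPs and 2.16% in the TET TKO line. At an unadjusted edgeR p under 0.05 there were 3 of the 6 partners in NPs and 4 in the TET TKO line, without a background share. Their median log2 fold change was −0.32 in both comparisons. Hcfc1, the host cell factor bound by OCT1, was at 97.3 ± 3.30 RPKM in ESCs and 58.3 ± 6.10 in NPs, with a log2 fold change of −0.72 (edgeR adjusted p = 0.000610), below 3-fold. Snapc4 was lower in NPs with a log2 fold change of −1.25 (edgeR adjusted p = 1.55e-05), also below 3-fold. Snapc2, another subunit gene of the same complex, had the opposite sign, with a log2 fold change of 0.86 in NPs (edgeR adjusted p = 0.00417) and of 0.96 in TET TKO ESCs (edgeR adjusted p = 0.00212), and did not pass in either. Pou2af1, the B-cell coactivator of OCT2, had 0 counts in all 9 libraries. Of the genes around BRN3A in sensory neurons, 2 of 6 tested were called higher in NPs (median log2 fold change of the 6, 1.40), the proneural factors Neurog1 (48.5 ± 26.1 against 0.748 ± 0.0879 RPKM) and Neurog2 (25 ± 5.13 against 0.0206 ± 0.00180), and 1 lower, Prph (0.834 ± 0.422 against 6.66 ± 0.527). Of all genes tested, 12.4% were called higher and 10% lower, with a median of 0.0252. Neurog1, Neurog2, Runx3 and Tlx3 passed the filter on low values only through NPs, so the count and the median of this list are a description. Isl1, Ntrk3, Runx1 and Prrxl1 stayed under 1 RPKM in every library.

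OCT6 is made in the formative epiblast, so the genes of that state were set beside Pou3f1. In TET TKO ESCs 0 of 5 were called by edgeR, 3 had an unadjusted p under 0.05, and DESeq2 called 2 (Fgf5 as higher and Otx2 as lower). Among all 14048 genes tested there, edgeR called 2.16% and DESeq2 called 934 genes. Fgf5, the epiblast growth factor, was at 1.78 ± 0.588 against 0.156 ± 0.117 RPKM (log2 fold change 3.51, edgeR adjusted p = 0.00306), Dusp6, a feedback phosphatase of FGF signalling, at 33.5 ± 7.74 against 12.4 ± 2.84 (log2 fold change 1.42, edgeR adjusted p = 0.00319), Dnmt3b at 86.5 ± 48.3 against 59.4 ± 6.14, Lef1 at 1.01 ± 0.812 against 0.660 ± 0.0504, and Otx2 at 4.06 ± 2.75 against 13.3 ± 1.45. These values did not share a direction. In NPs, edgeR called 2 of 4 tested, Otx2 and Dnmt3b, both as lower, as were 10% of all genes tested. DESeq2 called Fgf5 as well, as higher, at 1.20 against 0.156 RPKM (log2 fold change 2.95, edgeR adjusted p = 0.00209). Fgf5 passed the filter on low values only through NPs in this comparison and only through TET TKO ESCs in the other. Otx2 passed it between NPs and ESCs only through ESCs. Lef1 passed it between TET TKO and wild type ESCs only through TET TKO ESCs.

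Finally, the genes with the most similar profiles over the 9 libraries were listed for Pou5f1 and Pou3f2, the POU genes with the highest mean RPKM in ESCs and in NPs, by Euclidean distance between mean-centred log2(RPKM + 1) values among 13867 genes. For Pou5f1 these were L1td1 (0.707), which encodes an RNA-binding protein of pluripotent cells, the threonine dehydrogenase gene Tdh (0.950) and Tdgf1 (1.16), which encodes the Nodal coreceptor Cripto. For Pou3f2 the closest was Pou3f3 (0.392), followed by Mir124-2hg (0.462), the host gene of a neuronal microRNA, and Hoxb3 (0.480), a hindbrain patterning gene. Pou3f4 ranked 35 (0.956), Pou2f2 524 and Pou6f1 958, and Pou5f1 was among the last, at 13864. The points share the 3 groups, so these distances mainly describe the group means.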

How the data were processed

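RNA-Seq covers 9 of the 24 samples (ESC, NP and TET TKO, with 3 libraries per group). The deposited values are raw counts of reads per gene, which the authors made from trimmed single-end reads with STAR (2.6.1b in the submitters' processing notes) and featureCounts 1.6.2, without strand, on GRCm38 and Ensembl 89 genes. How reads that match several places were counted is not given in the sources used here, so closely related copies, such as pseudogenes of Pou5f1, are uncertain. All 9 columns matched a sample, and 0 did not. Methylation tables were not used here.

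Library sizes were adjusted with TMM factors (edgeR 4.0.16 under R 4.3.3). RPKM used the exonic gene length in the tables. The test was edgeR's quasi-likelihood F-test, run over genes with at least 1 RPKM in at least 1 library of the pair, with Benjamini-Hochberg adjustment, and called at an adjusted p under 0.001 and at least 3-fold. The fit used the 2 groups compared. The study's methods state its filter on 1 RPKM the other way round, and it was read as keeping expressed genes. Named genes are the 9 members, the other POU genes (not all are reported here), Tet1 to Tet3, lists of partners and described targets (of lists over 6 genes, those called or under 1 RPKM in every library, to which Hcfc1, Snapc2, Snapc4, Sox21 and neuronal markers were added after their values were seen), and the 3 genes nearest to Pou5f1 and to Pou3f2. Members and lists were chosen with earlier results of these data known. Promoters came from RefSeq (8 members matched), and proteins from GENCODE vM21 coding sequences, the longest per gene, aligned with Biopython 1.88 (BLOSUM62). The paper's methods call the RNA-Seq replicates biological. The labels do not say that they come from separate cultures, so p values may measure technical spread.

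On simulated data for NPs against ESCs (15083 genes, 200 changed), 93% of 4-fold and 96% of 8-fold changes were recovered. For TET TKO against ESCs (14048 genes) these were 95% and 99%, and 0 unchanged genes were called in either. The simulated counts had the same fixed dispersion for every gene, which was not fitted to these libraries. The rates therefore need not hold for the real data, where the spread between libraries differs from gene to gene.

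Alternatives were library sizes without TMM, DESeq2 1.42.0, no filter, a stricter filter of 10 counts per library, a log2 fold threshold of 3, a fit of all 3 groups, a replicate block, each library left out, thinned TET TKO counts, CPM in place of RPKM and global alignment.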

Additional observations from a re-analysis of the deposited data

How the results depend on the processing

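In NPs against ESCs, the 9 members kept the sign of their log2 fold change in every alternative except Pou4f1, which was not called and reached 0.01 without NP replicate 2, and calls of Pou5f1, Pou3f2, Pou3f3 and Pou3f4 held in every alternative that tested them. The number of members called was 2 with at least 10 counts in every library, because the 3 BRN genes then leave the test, 6 with library sizes alone and without a filter, where Pou6f1 passes too, and 4 to 6 without 1 library. All genes called were 5281 without a filter, 1890 at a log2 fold change of at least 3 and 2446 to 3376 without 1 library.

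In TET TKO against ESCs, the number of members called was 2 in DESeq2 (Pou3f1 and Pou6f1), 0 with at least 10 counts in every library, at a log2 fold change of at least 3, with all 3 groups in the fit and with TET TKO counts thinned to the ESC depth, and 0 to 2 without 1 library. The value was 0 without ESC replicate 1, 2 or 3 or TET TKO replicate 1 or 2. All genes called were 934 in DESeq2, 1263 without a filter, 152 at a log2 fold change of at least 3 and 50 to 300 without 1 library. The share of called genes that were higher was 23.0% at that fold threshold against 38.8%. The cause of these shifts was not tested.

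The labels do not say whether libraries with the same replicate number belong together. Deviations of same-numbered libraries correlated at −0.122 to 0.00875 between ESCs and NPs and −0.0783 to 0.303 between ESCs and TET TKO ESCs, and 1 of 6 and 4 of 6 libraries correlated best with their own number. With the replicate number as a block, 5 members and 3330 genes were called in NPs, and 1 member and 591 genes in TET TKO ESCs. Without the block, 3379 genes were called in NPs and 304 in TET TKO ESCs. Whether the numbers mark shared handling was not tested.

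Without division by gene length, as CPM, the share of Pou5f1 was 85.4% in ESCs and 85.0% in TET TKO ESCs, the class III sum was 6.83, 300 and 24.0 CPM in ESCs, NPs and TET TKO ESCs, and in NPs 2 pairs of neighbours in the order did not overlap. Without 1 library the share of Pou5f1 was 96.6% to 96.8% in ESCs, 0.813% to 2.41% in NPs and 95.5% to 95.9% in TET TKO ESCs, and the class III sum 1.61 to 1.83, 47.9 to 65.4 and 4.83 to 7.75 RPKM. In global alignments with OCT4 identity was 48.5% for BRN2, 49.4% for BRN1 and 46.6% for BRN4. Over the common stretch, chosen after seeing the data, it was 56.5% for OCT1 and OCT2, 63.6% for OCT6 and 49.4% for BRN3A. The lowest counts, 5 to 14 per ESC library for the BRN genes, limit the precision of their folds.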
